A study of Mus with 15 samples.

Results

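Serotonin receptor genes were examined in thalamic maps of monoubiquitinated histone H2A (H2AK119ub, hereafter H2Aub). The 10 genes Htr1a, Htr1b, Htr1d, Htr2a, Htr3a, Htr4, Htr5a, Htr5b, Htr6 and Htr7, of 21887 annotated mouse protein-coding genes, were chosen by their H2Aub peaks: each had a peak in at least 1 of 11 H2Aub peak lists, and the pattern of Htr1a in the cKO lists was known at the time. The presence of a peak at each of them is therefore a description and not a finding. For every gene the readout was the number of bases lying under peaks within the annotated gene body plus 5 kb on each side, called the covered length below. Of the 278739 peaks in the 11 lists, 163 lay in these 10 windows.

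The lists came from microdissected thalami of adult mice of 2 to 4 months. All mice received saline for 3 days and then, for 5 days, either cocaine at 20 mg/kg intraperitoneally or saline vehicle. Mice labelled Maged1 WT gave 3 cocaine and 3 saline libraries. By the study's general methods the controls of the cKO were floxed littermates, while its ChIPmentation methods call these mice WT. Maged1 cKO mice, in which Cre driven by the Vglut2 promoter deletes Maged1 in glutamatergic neurons that express Vglut2, gave 2 cocaine and 3 saline libraries. Each library pooled the thalami of several mice, other thalamic cells of the cKO keep Maged1, and a broader peak can come from more cells with the mark or from more mark per cell, which cannot be told apart in bulk tissue. Maged1 itself had a peak in 0 of 11 lists, so the peaks do not check the deletion.

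Serotonin is released in the thalamus by fibres of raphe neurons, and its receptors fall into classes by how they signal. The receptors encoded by Htr1a, Htr1b and Htr1d couple to Gi/o proteins, which lower cyclic AMP, and Htr5a and Htr5b are usually placed with them. Htr2a encodes a Gq-coupled receptor that activates phospholipase C, Htr4, Htr6 and Htr7 encode Gs-coupled receptors that raise cyclic AMP, and Htr3a encodes a subunit of the only serotonin receptor that is an ion channel. H2Aub is deposited by Polycomb repressive complex 1 and is known as a mark of repressed genes, often over the promoters of developmental regulators and of genes silent in a given cell.

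The lists differed widely in size, and this touches every value that follows. They held 7271 to 80713 peaks covering 4.24 to 27.6 Mb, and between 12.6% and 58.9% of all protein-coding genes had a peak in their window. The lists cKO cocaine 1 and cKO saline 1 stood apart with 54653 and 80713 peaks and a highest fold enrichment over input of 31.2 and 52.6, while the other 9 lists held at most 26055 peaks and a highest fold of 12.2. Each list is from one library called on its own, read depth is unknown here, and a gene with 0 bp has no called peak, which is not the same as no H2Aub. With 3 against 3 or 2 against 3 libraries an exact permutation test cannot give a p below 0.10, so the receptor genes are described by their values and by whether the groups overlap, beside the share of all genes that did the same.

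Most of the receptor genes had H2Aub peaks more often than the typical gene. Htr1d had a peak in 11 of 11 lists, Htr2a and Htr6 in 10, Htr4 in 9, Htr3a in 8, Htr1a, Htr1b and Htr5b in 7, Htr7 in 4 and Htr5a in 1. Of the 10 genes 8 had a peak in at least 6 lists, against 21.2% of protein-coding genes, and the median gene had a peak in 2 lists. This count describes genes chosen with their peaks known. Of the 4 receptor genes outside the group, Htr3b had a peak in 5 lists, more than Htr7 or Htr5a, Htr1f and Htr2c in 2 each and Htr2b in 0.

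**Figure D1:**
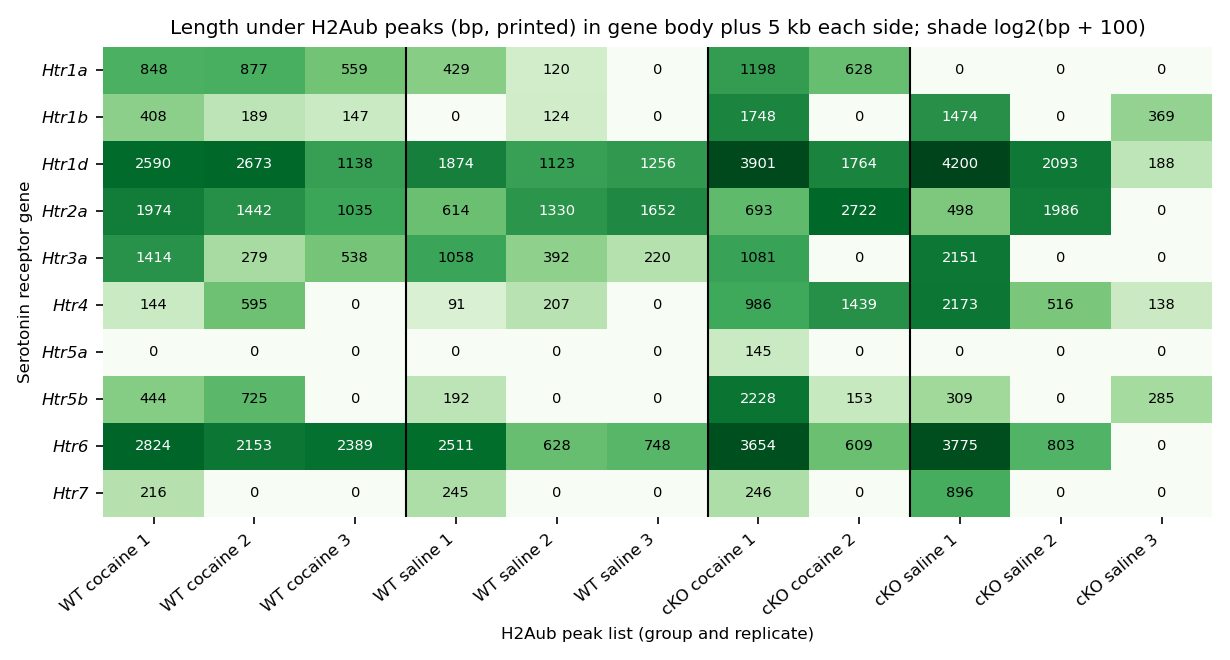
Bases under H2Aub peaks in the body plus 5 kb each side of each serotonin receptor gene (rows), printed for each of the 11 peak lists (columns), with the shade on a log2(bp + 100) scale and black lines between the 4 groups. Htr1d is covered in every list and Htr5a in 1, and Htr1a is at 0 in all 3 cKO saline lists.

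Per kb of window, which allows genes of different length to be compared, the covered length averaged 70.6 bp per kb at Htr6 (SD 51.1, n = 11 lists) and 67.1 at Htr1d (SD 39.2). Htr3a followed with 29.6, Htr1a with 29.3, Htr1b with 26.1, Htr2a with 16.7 and Htr5b with 13.3, and the long genes Htr4, Htr7 and Htr5a with its single peak came last with 3.02, 1.33 and 0.564. Single lists carried 3 of these means: without cKO cocaine 1 the mean was 7.13 bp per kb at Htr5b and 0 at Htr5a, and without cKO saline 1 it was 0.644 at Htr7. The means of the other 7 genes moved by less than 1.5 times when any 1 list was left out. Without both cKO cocaine 1 and cKO saline 1, Htr1b fell to 8.84 bp per kb, below Htr2a at 18.7, and Htr3a was at 19.8 and Htr4 at 1.84. The only neighbours in this order that kept one direction in every list were Htr1d and Htr3a, with Htr1d higher in 11 of 11. All other neighbours changed places between lists: Htr6 was above Htr1d in 5 lists and below it in 6, and Htr3a above Htr1a in 5 and below it in 4.

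Among the Gi/o-coupled receptors, Htr1a (gene ID 15550, mm10 chr13:105443693-105448133), the somatodendritic autoreceptor of raphe neurons and a widespread postsynaptic receptor, had 848, 877 and 559 bp under peaks in WT cocaine lists 1 to 3. In the WT saline lists it had 429, 120 and 0 bp. In the cKO it had 1198 and 628 bp in the cocaine lists and 0, 0 and 0 bp in the saline lists. All 5 cocaine lists of both genotypes were thus above all 6 saline lists, a pattern partly known when the gene was chosen and seen at 0.356% of all protein-coding genes. The adrenergic receptor gene Adrb3 had it too, with 2011, 2753 and 1068 bp in WT cocaine and 194, 384 and 411 bp in WT saline. Its cKO values were 1149 and 425 bp with cocaine and 0 bp in each saline list.

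The group means for Htr1a were 761 ± 176 bp with cocaine and 183 ± 221 bp with saline in the WT (SD, n = 3 each), a difference of 578 bp, and 913 ± 403 bp (SD, n = 2) in cKO cocaine against 0 in cKO saline. The absence of Htr1a from cKO saline lists was known when the gene was chosen. A peak in both cKO cocaine lists and no cKO saline list was seen at 0.306% of all protein-coding genes and 0.474% of those with a peak in these 5 lists. The largest list of all, cKO saline 1, had a peak at 58.9% of protein-coding genes, and its nearest peak to Htr1a was 64653 bp away. In the cKO saline lists 2 and 3 the nearest peaks were 575168 and 1637126 bp away.

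The Htr1a peaks were of ordinary height for these lists, whose median folds were 3.10 to 4.02 and in which 9.82% to 32.9% of peaks had q above 0.05. The gene's 10 peaks had fold enrichments over input of 2.86 to 3.94, widths of 120 to 877 bp and q values between 0.0062 and 0.0748, 3 of them had q above 0.05, and all lay within 2 kb of a gene end. The single peak of cKO cocaine 2 had a fold of 3.06 and q = 0.0514. With peaks of q above 0.05 removed, Htr1a kept 395, 877 and 559 bp in the WT cocaine lists, 429, 0 and 0 bp in the WT saline lists, and 1198 and 0 bp in cKO cocaine, so the groups overlapped in both genotypes. With each list held to its 7271 peaks of lowest q, Htr1a kept a peak only in WT cocaine 3 and WT saline 1. With the covered length scaled to an equal total per list, the WT groups still did not overlap, at 623, 741 and 683 bp against 490, 274 and 0 bp, and the cKO cocaine lists had 715 and 720 bp.

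The positions of the Htr1a peaks differed between lists. In the WT lists, cocaine 1, cocaine 2, saline 1 and saline 2 had peaks between −697 and 725 bp from the lower-coordinate end of the gene (negative values lie outside it), while the peak of cocaine 3 lay at 1037 to 1595 bp. That 559 bp stretch, chr13:105444730-105445288, was also under a peak in both cKO cocaine lists. At most 3 lists shared any base. Counted as bases under peaks of at least 2 lists of a group, Htr1a had 302 bp in WT cocaine, 21 bp in WT saline, 628 bp in cKO cocaine and 0 bp in cKO saline.

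**Figure D2:**
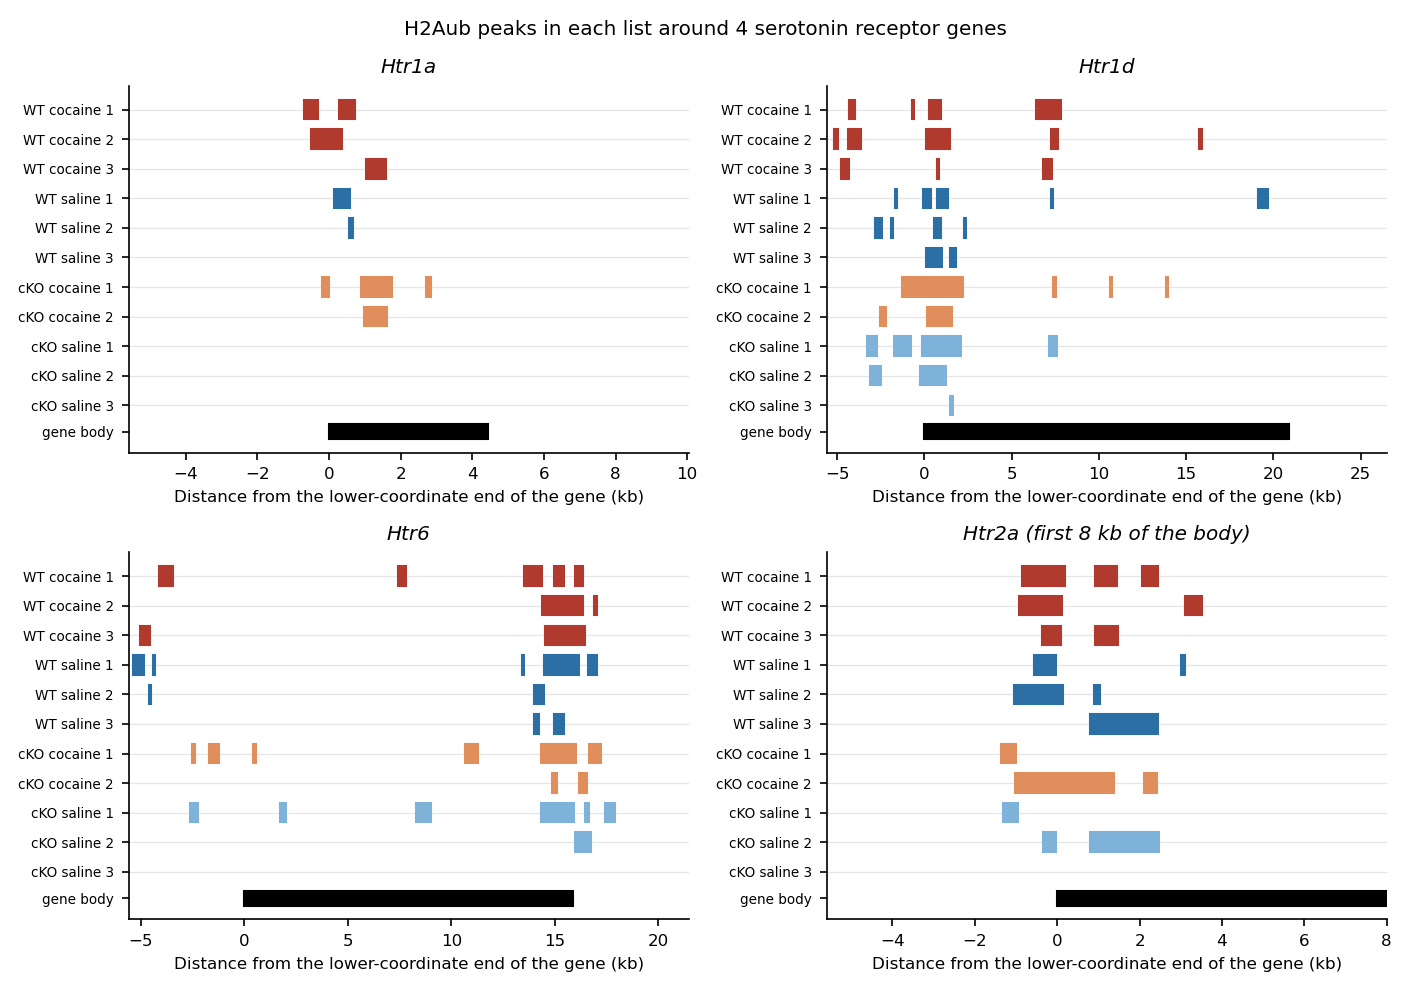
H2Aub peaks (coloured bars) in each of the 11 lists around Htr1a, Htr1d, Htr6 and Htr2a, against the distance in kb from the lower-coordinate end of the gene, with the gene body in black. The Htr2a panel is cut inside the body, and peaks of cKO cocaine 1 and cKO saline 1 further along lie outside it. Many peaks of Htr1d and Htr2a lie near the lower end and many of Htr6 near the higher end. Within 2 kb of a gene end were 18 of 36 peaks at Htr1d, 14 of 21 at Htr2a and 22 of 33 at Htr6. The widest Htr1a peaks of WT cocaine 3 and of both cKO cocaine lists lie further into the body than those of the other WT lists.

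Htr1b (gene ID 15551, chr9:81628291-81633832), known as a presynaptic receptor that limits transmitter release, had short peaks in the WT. It had 408, 189 and 147 bp in the WT cocaine lists and 0, 124 and 0 bp in the WT saline lists, so that the groups did not overlap, with means of 248 ± 140 and 41.3 ± 71.6 bp (SD, n = 3 each). The lowest cocaine list and the highest saline list differed by few bases, and after scaling to equal list length they overlapped. In the cKO it was long in the large lists, with 1748 bp in cocaine 1 and 1474 bp in saline 1, and had 0 bp in cocaine 2 and 0 and 369 bp in saline 2 and 3. Of its 9 peaks 8 also lay over the body of D430036J16Rik, a long noncoding RNA gene that overlaps Htr1b, and peaks alone cannot assign the mark to one of them.

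Htr1d (gene ID 15552, chr4:136423522-136444405) was the most regularly covered of the receptor genes. Its values were 2590, 2673 and 1138 bp in the WT cocaine lists, 1874, 1123 and 1256 bp in the WT saline lists, 3901 and 1764 bp in cKO cocaine, and 4200, 2093 and 188 bp in cKO saline. The groups overlapped in both genotypes. A stretch of 130 bp, chr4:136424246-136424375, lay under a peak in 10 of 11 lists, 724 to 853 bp inside the lower end of the gene. The list without it was cKO saline 3, the shortest.

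Htr5a and Htr5b, which encode closely related receptors, differed. Htr5a had 1 peak of 145 bp, in cKO cocaine 1, 1508 bp beyond the higher end of the gene. Htr5b had 444, 725 and 0 bp in the WT cocaine lists, 192, 0 and 0 bp in the WT saline lists, 2228 and 153 bp in cKO cocaine, and 309, 0 and 285 bp in cKO saline, and 9 of its 10 peaks lay within 2 kb of a gene end. The high value of cKO cocaine 1 was not matched in cKO cocaine 2, and the groups overlapped in each comparison.

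The Gq-coupled receptor gene Htr2a (gene ID 15558, chr14:74640874-74706859), which encodes the main target of classical psychedelics, had 1974, 1442 and 1035 bp in the WT cocaine lists and 614, 1330 and 1652 bp in the WT saline lists. In the cKO it had 693 and 2722 bp with cocaine and 498, 1986 and 0 bp with saline. The treatments overlapped in both genotypes. A stretch of 299 bp just outside the lower end of the gene was under a peak in 7 lists, and the lncRNA gene Gm41210 ends there, 28 bp from Htr2a, so that 9 of the 21 Htr2a peaks lay over that gene too.

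Htr2a also held the highest enrichment seen at any receptor gene. A narrow peak outside the lower end was 344 bp wide with a fold of 14.1 in cKO cocaine 1 and 371 bp wide with a fold of 12.5 in cKO saline 1. Its near edge lay 1013 and 945 bp from the gene, and its −log10 q was 52.9 and 38.4. Only 2 other lists had an overlapping peak, with folds of at most 4.72. The same 2 cKO lists shared 14 pairs of overlapping peaks at the receptor genes, of which 4 overlapped no peak of another list: inside Htr3a, at the higher end of Htr5b, outside the lower end of Htr6, and inside Htr7. These peaks had folds of 4.85 to 7.31, against a highest fold of 4.72 at the receptor genes in the other 9 lists. They moved with replicate 1 of the cKO under both treatments.

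**Figure D3:**
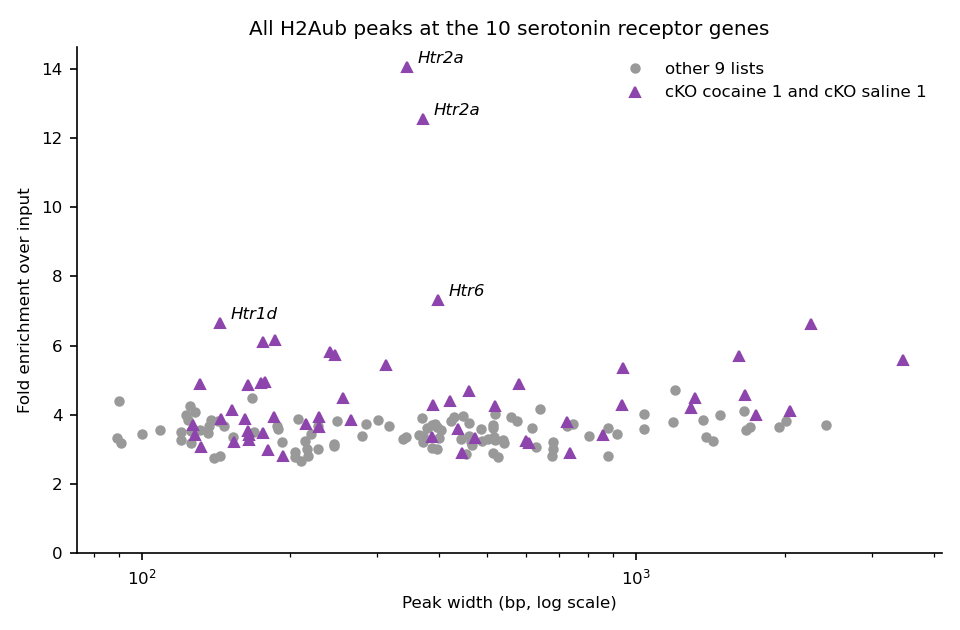
Fold enrichment over input against width (bp, log scale) for the 163 H2Aub peaks at the 10 serotonin receptor genes; triangles are peaks of cKO cocaine 1 and cKO saline 1, and circles those of the other 9 lists. The 2 narrow Htr2a peaks, at folds of 14.1 and 12.5, lie far above the median of 3.64.

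Among the Gs-coupled receptors, Htr6 (gene ID 15565, chr4:139059706-139075570), a receptor found mostly in brain, had 2824, 2153 and 2389 bp in the WT cocaine lists and 2511, 628 and 748 bp in the WT saline lists. The means were 2455 ± 340 bp and 1296 ± 1054 bp (SD, n = 3 each), and WT saline 1 lay within the cocaine range. When only peaks with q of at most 0.05 were counted, Htr6 had 1947, 2153 and 1946 bp with cocaine in the WT against 1790, 519 and 503 bp with saline, so that the groups no longer overlapped. At that threshold 5.4% of all protein-coding genes, and 15.9% of those with a peak in these lists, were higher in cocaine without overlap. In the cKO it had 3654 and 609 bp with cocaine and 3775, 803 and 0 bp with saline, so that the large lists were high under both treatments. A stretch of 137 bp, at −910 to −774 bp from the higher end of the gene, was under a peak in 8 lists. Of the 33 Htr6 peaks 13 had q above 0.05, the highest share among the receptor genes with more than 10 peaks. The protein-coding gene Tmco4 (chr4:138972276-139059173) ends 533 bp below Htr6, and 8 of the 33 peaks, in 6 lists, lay over it, among them the peak with a fold of 7.31 in cKO saline 1. Peak positions alone cannot assign those peaks to Htr6. The windows of Htr4 (Fbxo38, Gm36316 and Gm18653) and of Htr5b (Ccdc93) also held other genes, with 0 receptor gene peaks over them.

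Htr4 (gene ID 15562), which spans a long window on chromosome 18, had 144, 595 and 0 bp in the WT cocaine lists and 91, 207 and 0 bp in the WT saline lists. It had 986 and 1439 bp in cKO cocaine and 2173, 516 and 138 bp in cKO saline. Both cKO cocaine lists were above all 3 WT cocaine lists, with means of 1213 ± 320 bp (SD, n = 2) and 246 ± 310 bp (SD, n = 3) and a difference of 966 bp. The same lack of overlap was seen at 3.6% of all protein-coding genes, and at Htr4 it was lost with 7271 peaks per list and within 1 kb of the gene ends. The bases in both cKO cocaine lists amounted to 425 bp and lay near the lower end of the gene, while 2 further peaks of cKO cocaine 1 lay 85473 and 79566 bp from the nearer end. Htr7, the other long gene, had 216, 0 and 0 bp in the WT cocaine lists, 245, 0 and 0 bp in the WT saline lists, 246 and 0 bp in cKO cocaine and 896, 0 and 0 bp in cKO saline, so that its values came from replicate 1 of every group.

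The ion channel gene Htr3a (gene ID 15561, chr9:48899213-48911152) had 1414, 279 and 538 bp in the WT cocaine lists and 1058, 392 and 220 bp in the WT saline lists. In the cKO it was at 1081 and 0 bp with cocaine and 2151, 0 and 0 bp with saline, so that coverage was seen in replicate 1 alone. Of its 20 peaks 14 lay in the flanks of the gene, and 10 lay over Gm32335, a long noncoding RNA gene that overlaps it. At most 4 lists shared a base, for example in a stretch of 16 bp that starts at −2912 bp from the lower end. Htr3b, its partner subunit gene and not a member, had 0, 360 and 616 bp in the WT cocaine lists, 0, 0 and 183 bp in the WT saline lists, 498 and 0 bp in cKO cocaine and 1136, 0 and 0 bp in cKO saline.

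**Figure D4:**
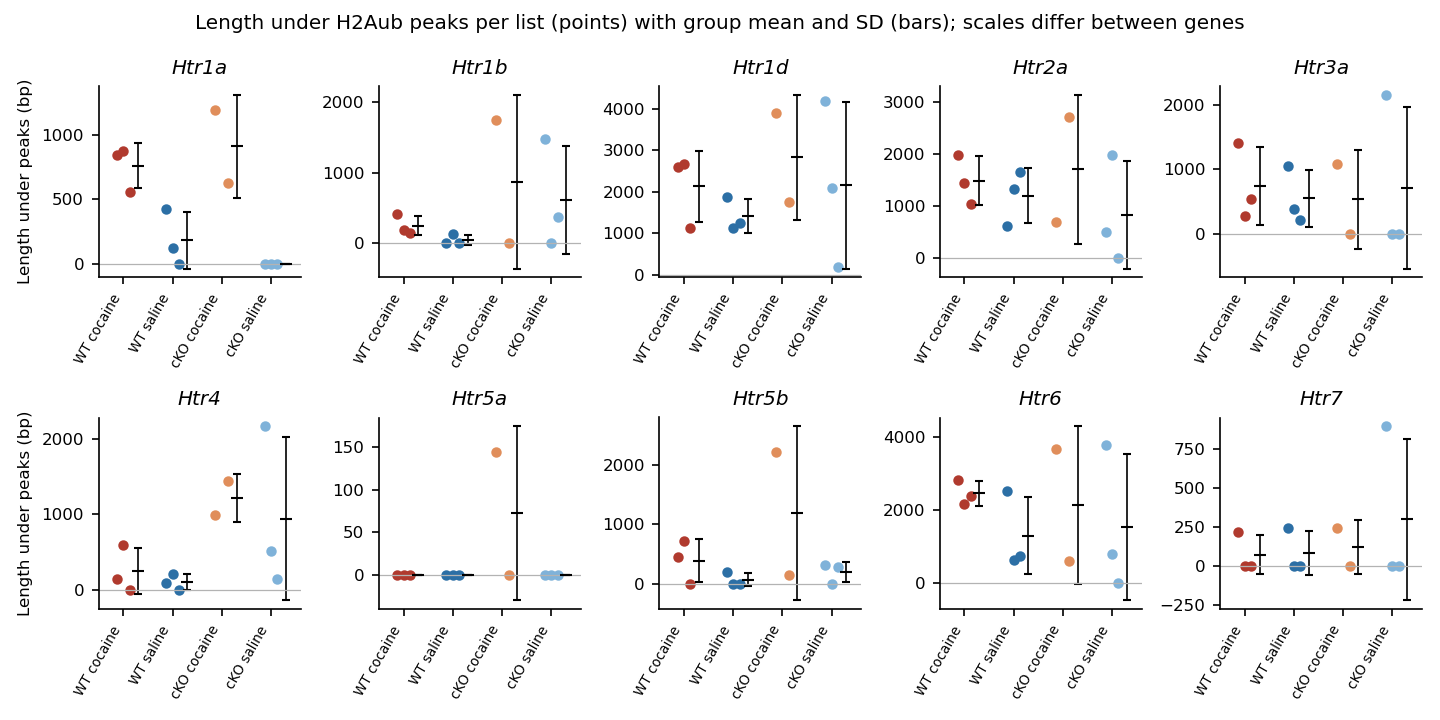
Bases under H2Aub peaks for each serotonin receptor gene, with 1 point per list, the group mean (dash) and SD (bar), and a separate vertical scale for each gene. The WT cocaine and WT saline points are apart at Htr1a and Htr1b, and the cKO cocaine and cKO saline points at Htr1a.

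Across the 10 genes, the question asked of the WT was whether cocaine went with more H2Aub. The covered length was above saline without overlap at 2 genes, Htr1a and Htr1b, and below it at 0. The same was seen at 5.81% of all protein-coding genes, and at 15.5% of the 8200 that had a peak in these lists, with 0.11% and 0.293% in the other direction. The count of 2 among the 9 receptor genes with a peak in the WT is near that background. By the group means 8 genes were higher in cocaine, 1 (Htr7) was lower and Htr5a was at 0 in both, and 77.0% of protein-coding genes with a peak were higher in cocaine.

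The summed covered length of the 10 genes averaged 8534 ± 2552 bp (SD, n = 3) in the WT cocaine lists, from 5806 to 10862, and 4938 ± 1798 bp (SD, n = 3) in the WT saline lists, from 3876 to 7014. The groups overlapped, and the WT cocaine lists were longer as a whole, at 10.4 to 17.2 Mb against 5.55 to 11.1 Mb. As a share of each list's covered length, the receptor genes took 595 ± 35.1 bp per Mb in WT cocaine and 600 ± 126 bp per Mb in WT saline. Scaling to equal list length turned the difference in summed length from 3596 bp higher in cocaine to −61.7 bp. The number of receptor genes with a peak was 9, 8 and 6 in WT cocaine and 8, 7 and 4 in WT saline, beside 23.4%, 27.8% and 21.1% of all protein-coding genes in the former lists and 26.0%, 15.1% and 16.6% in the latter.

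**Figure D5:**
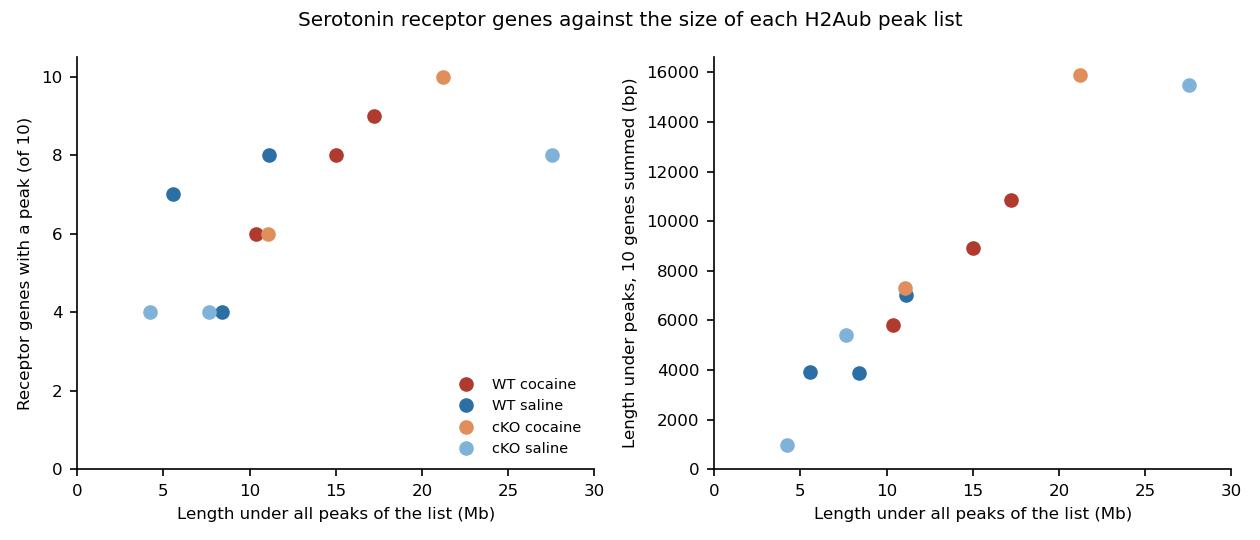
Number of serotonin receptor genes with an H2Aub peak (left) and their summed covered length in bp (right) against the length under all peaks of the list in Mb, 1 point per list. The 2 largest lists, cKO cocaine 1 and cKO saline 1, have the highest summed lengths, 15880 and 15476 bp, and the smallest, cKO saline 3, the lowest, 980 bp.

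In the cKO, where the same treatments were compared without Maged1 in Vglut2 neurons, Htr1a alone was above saline without overlap, which its choice had used. The shares of all protein-coding genes and of those with a peak in these lists that did so were 2.52% and 3.9%. Below saline without overlap were 0 receptor genes, against 0.0503% and 0.0778%. Within 1 kb of the gene ends, Htr1a and Htr5b were above saline without overlap. The share of all genes that did so in that window was not computed. The summed covered length was 15880 and 7315 bp in cKO cocaine and 15476, 5398 and 980 bp in cKO saline, with lists of 21.2 and 11.1 Mb and of 27.6, 7.67 and 4.24 Mb. Their difference of 4313 bp became 30.3 bp without cKO cocaine 1, 8595 bp without cKO cocaine 2, 8409 bp without cKO saline 1 and 1160.5 bp without cKO saline 3. Without cKO cocaine 1 and cKO saline 1, Htr1a, Htr2a and Htr4 stood above saline without overlap, from 1 cocaine list against 2. These were 3 of the 7 receptor genes with a peak in the remaining lists, where 67.2% of the protein-coding genes with a peak did the same, and 0 receptor genes were below, against 2.88%. Without cKO cocaine 2, cKO cocaine 1 alone was above all 3 saline lists at Htr1a, Htr1b, Htr5a and Htr5b, as at 33.1% of the genes with a peak in these lists. Receptor genes with a peak numbered 10 and 6 with cocaine and 8, 4 and 4 with saline, beside 50.4% and 22.1% of all protein-coding genes with cocaine and 58.9%, 15.7% and 12.6% with saline.

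Between genotypes, 0 receptor genes lay apart in saline, where 0.329% of all protein-coding genes and 0.54% of those with a peak were higher in the cKO without overlap, and 0.37% and 0.607% were lower. In cocaine, Htr4 alone was higher in the cKO, against 3.6% of all protein-coding genes and 6.6% of those with a peak, and 0 receptor genes were lower, against 1.77% and 3.25%. Without cKO cocaine 1 a single cKO cocaine list remains, and 5 receptor genes then lay outside the WT cocaine range. Htr2a and Htr4 were above it, where 15.5% of the protein-coding genes with a peak in these lists were, and Htr1b, Htr3a and Htr6 were below it, where 23.3% were. Without cKO cocaine 2 the large list cKO cocaine 1 stands alone, and it was above the WT cocaine range at 8 receptor genes, as at 68.4% of the genes with a peak in these lists, and below it at Htr2a, as at 6.07%. The genotype and treatment comparisons share these groups, so their values are given side by side only. With the gene body alone, Htr1a and Htr4 were higher in cKO cocaine than in WT cocaine without overlap. The share of all genes that did so with the gene body alone was not computed. The difference in the response of Htr1a between genotypes was not tested.

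The other genes of the serotonin system were unevenly covered. The 5 transcription factor genes that specify or maintain serotonergic neurons, Fev, Gata2, Gata3, Lmx1b and Nkx2-2, had peaks in 11 of 11 lists, with mean covered lengths of 22940 bp at Lmx1b, 18293 bp at Gata3, 14246 bp at Gata2 and 10603 bp at Nkx2-2. Of the 8 genes of serotonin synthesis, transport and breakdown, 3 had a peak in at least 6 lists. Slc6a4, the serotonin transporter and a target of cocaine, had peaks in 11 lists and averaged 4197 ± 1009 bp after cocaine and 2417 ± 1425 bp after saline in the WT (SD, n = 3 each). These groups overlapped, with WT saline 1 at 4011 bp against a lowest cocaine value of 3571 bp, and the cKO means were 1963 ± 742 bp with cocaine (n = 2) and 1707 ± 1312 bp with saline (n = 3). Slc18a2, the vesicular monoamine transporter, had peaks in 11 lists, with WT means of 3016 ± 769 bp after cocaine and 904 ± 322 bp after saline. Tph1, which encodes the tryptophan hydroxylase used mostly outside the brain, had peaks in 7 lists.

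Of the 16 genes that encode G proteins, effectors and partners of the receptors, 6 had a peak in at least 6 lists. Gnas, which encodes Gs alpha, was covered in 11 lists, and averaged 6708 ± 515 bp after cocaine and 3427 ± 1425 bp after saline in the WT (SD, n = 3 each). Adcy5, Plcb1 and Kcnj6 were covered in 8 lists each, with means of 1003, 669 and 655 bp. In an exact two-sided permutation test of WT cocaine against WT saline, 4 of the 33 serotonin genes outside the members (Tph1, Slc18a2, Nkx2-2 and Gnas) reached the smallest possible p of 0.10, all higher in cocaine, against 5.92% of all protein-coding genes. Of the 33 genes 20 had a peak in the WT lists, and 15.8% of the 8200 protein-coding genes with a peak there reached that p. After Benjamini-Hochberg adjustment over all 21887 genes the smallest p was 1, and 0 genes had an unadjusted p under 0.05.

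The receptors of the other monoamines, taken as whole families, are given beside them with no test. The 5 dopamine receptor genes had a peak in a median of 10 lists with a median of 46.1 bp per kb. The 9 adrenergic receptor genes had one in a median of 10 lists with 65.2 bp per kb. The 10 serotonin receptor genes, chosen with their peaks known, had one in a median of 7.5 lists with 21.4 bp per kb. Levels varied within these families: Drd3 had a peak in 5 lists and a mean of 210 bp, and Adra1b averaged 3.82 bp per kb. Of the same receptors, Drd4 had a mean covered length of 2709 bp and Adra2c 3044 bp, each in 11 lists. The 10 ribosomal protein genes, which every cell transcribes, had a median of 0 lists.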

How the data were processed

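ChIPmentation libraries against H2AK119ub from pooled mouse thalami were analysed as 1 broad peak list per library (11 lists). The authors trimmed reads with Cutadapt, mapped them to mm10 with Bowtie2 (v 2.3.4.1), and used MACS2 (v 2.1.1.20160309.3) for broad peaks over total input. The deposited lists give positions, a display score, the fold enrichment over input as a ratio, and −log10 p-values and q-values, with q up to 0.1; they hold no read counts. The 4 input libraries, 1 for each group, were not analysed here. If each group was called over its own input, a difference between groups cannot be told apart from one between inputs.

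Gene positions were taken from RefSeq on GRCm38.p6 (the mm10 coordinates). The table used gives no strand, so gene ends are named by coordinate. Peaks were assigned by an overlap of at least 1 bp with the gene body plus 5 kb on each side, and the union of covered bases was summed per gene and list with Python 3.11.15, NumPy 2.4.6 and pandas 2.3.3, after tests on simulated peaks. Replicates are separate pools by the labels. The 10 receptor genes and the comparison lists were chosen with earlier results of these data known. Named genes were all receptor genes, the genes overlapping their windows and, from each other list, at most 4 genes with a peak in at least 6 lists by mean covered length, beside the 3 genes with the nearest profile to Htr1a and Htr1d. Fev was named after its values were seen, and Drd3, Adra1b and Adrb3 were also named outside this rule. Alternatives were the peak q, window, overlap, list size, scaling and left-out libraries.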

Additional observations from a re-analysis of the deposited data

How the results depend on the processing

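Read depth is unknown and peaks are calls, so a 0 can hide H2Aub under the threshold. Each group has 2 or 3 libraries. The start-site window could not be run without strand; 1 kb on each side of both gene ends, chosen after seeing the data, stood in for it. Of 167 alternative values for the summed results, 137 moved by less than the spread between replicates or, for counts, by no more than 1.5 times.

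For WT cocaine against saline, the 2 genes without overlap became 0 with 7271 peaks per list, 0 with the gene body alone, 0 at the gene ends and 1 after scaling to equal covered length, which also took the summed difference to −61.7 bp; at q of at most 0.05 there were again 2, Htr1b and Htr6 rather than Htr1a and Htr1b; leaving out 1 replicate gave 2 to 4 genes, with 4, all higher in cocaine, when WT cocaine 3 was left out (31.7% of the genes with a peak in the lists left did the same), and 2432 to 4960 bp. For cKO cocaine against saline, the 1 gene became 0 at q of at most 0.05, 0 with equal peaks, 2 at the gene ends and 3 without both cKO replicates 1, and the difference of 2.67 genes with a peak became −0.5 with equal peaks, 0.667 without cKO cocaine 1 and 4.67 without cKO cocaine 2; leaving out 1 replicate gave 1 to 4 genes, with 4 when cKO cocaine 2 was left out, and 30.3 to 8595 bp. For cKO saline against WT saline the 0 genes became 1 without both cKO replicates 1 (Htr3a, lower in the cKO, as were 10.1% of genes with a peak), and 0 to 3 on leaving out 1 replicate, with 3 when cKO saline 2 was left out (Htr1b and Htr5b higher in the cKO and Htr2a lower, where 3.06% and 1.73% of genes with a peak were); the summed 2347 bp became −1749 bp without cKO saline 1 and 5499 bp without cKO saline 3. For cKO cocaine against WT cocaine the 3064 bp became −2229 bp with equal peaks and −1219 bp without the cKO replicates 1 (1 cocaine library left), and −1219 to 7346 bp on leaving out 1 replicate; the 1 gene became 2 with the gene body alone, 0 at the gene ends, 5 without the cKO replicates 1, and 1 to 9 on leaving out 1 replicate, with 9 when cKO cocaine 2 was left out, as described above. On leaving out 1 replicate, the difference in genes with a peak ranged from 0.167 to 2.17 between the WT groups, from −2.33 to −0.167 between the saline groups and from −1.67 to 2.33 between the cocaine groups. The cause was not tested. Of the single-gene differences, 15 of 140, 22 of 140, 23 of 150 and 22 of 140 changed sign in these 4 comparisons.

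Htr1a kept its separation in the WT when each replicate was left out (487 to 701 bp) and after scaling (428 bp), and lost it at q of at most 0.05 (467 bp), with equal peaks (43.3 bp), with the gene body alone (278 bp) and at the gene ends (392 bp). In the cKO it lost it at q of at most 0.05 (599 bp) and with equal peaks (0 bp), and kept it at the gene ends with 150 bp in place of 913 bp. Htr4 lost its separation between the cocaine groups with equal peaks (719.5 bp) and at the gene ends (613 bp).

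Replicate numbers are shared between groups, but same-numbered WT libraries did not deviate together over 14474 genes (r of −0.0126, 0.0152 and 0.00909), and the cKO cocaine and saline libraries offer only 2 pairs (r of 0.46 and 0.328). Blocking by replicate number could not change the summed WT difference of 3596 bp, as all WT libraries are paired. In the cKO it only dropped the unpaired saline library (1160.5 bp rather than 4313 bp, a move below the spread between replicates).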

Other observations

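The protein-coding genes whose covered length was nearest to that of Htr1a over the 11 lists were Hspb1, Ctsd and Colca2, with mean absolute differences of 126, 132 and 146 bp. Ctsd, which encodes the lysosomal protease cathepsin D, shared with Htr1a the 0 bp in all 3 cKO saline lists, and its WT values were 683, 940 and 398 bp with cocaine and 220, 0 and 0 bp with saline. The cKO cocaine lists had 480 and 609 bp at Ctsd. Hspb1, which encodes a small heat shock protein, had 425 bp in cKO saline 1. The nearest to Htr1d were Chrm4, Gnat1 and Exoc3l2, with mean absolute differences of 279, 328 and 381 bp. Chrm4, which encodes the M4 muscarinic acetylcholine receptor, had a peak in 11 lists, from 753 bp in cKO saline 3 to 4448 bp in cKO saline 1. All genes share the same 11 lists, and these likenesses are descriptions with no test.

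The H2Aub peaks at the receptor genes were of ordinary width for these lists. Their median width was 378 bp, and the median widths of the 11 lists were 198 to 429 bp. Their median fold was 3.64 over input, 33 of 163 (20.2%) had q above 0.05, and 103 lay within 2 kb of a gene end. Of these peaks 89 lay inside a gene body, 53 in a flank and 21 across a gene end, and 35 also lay over the body of another gene. Bases under peaks of at least 2 lists of a group were seen at 6 receptor genes with cocaine (6438 bp) and 5 with saline (2278 bp) in the WT, beside 17.9% and 12.8% of all protein-coding genes. In the cKO they were seen at 5 with cocaine (2677 bp) and 3 with saline (2514 bp), beside 12.9% and 11.3%. The cKO cocaine group has 2 lists, which must both agree, while the other groups have 3.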
